A study of Mus musculus with 8 samples.

Results

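The Slc25 genes encode the mitochondrial carriers, the proteins that let metabolites cross the inner mitochondrial membrane. They were followed here in liver mRNA of mice given APAP with mesenchymal cells, APAP with PBS, or neither by label. Members were taken by name: every gene of the deposited table whose symbol is Slc25a followed by a number, except Slc25a13, Slc25a15 and Slc25a20. That rule used no measured value, but it was set with earlier results of these data known. It gave 44 genes of 22183 in the table.

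The inner mitochondrial membrane holds back nearly all charged small molecules, and each carrier exchanges or imports its own substrates, such as ADP for ATP, phosphate, citrate, amino acids, cofactors or nucleotides. In hepatocytes this traffic joins mitochondrial energy production to fat synthesis, glucose production and heme synthesis in the rest of the cell. APAP, by its usual reading acetaminophen, is a painkiller whose reactive product binds mitochondrial proteins at high dose, so mitochondria are an early site of the injury.

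Liver RNA came from C57 mice, a common inbred strain, in 3 groups. APAP_MSC (n = 3) received APAP at 400 mg/kg into the abdominal cavity and, 4 hours later, an injection of MSCs (usually read as mesenchymal stromal cells) into the tail vein. APAP_PBS (n = 3) received the same APAP dose, and its label adds PBS, a salt solution. CTRL (n = 2) is a control by its label alone, since its treatment text is that of the other groups, and the labels do not say whether it received PBS. Livers were taken at 24 hours. The labels give neither age nor sex, nor the source of the MSCs, and do not say that each sample is a separate animal. The p-values therefore speak only for the spread among these samples. Libraries of a group differed by more than counting noise, the chi-square of each pair being 13.4 to 69.7 times its degrees of freedom.

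Library totals ran from 16261191 to 24516470 estimated counts, and 12722 genes had enough of them to be tested. At these depths 3 counts, the upper limit for a gene with no count, correspond to 0.117 to 0.214 CPM, for counting error alone. APAP_MSC replicate 2 stood apart from the other APAP libraries: on the first principal component, which held 45% of the variance, it lay at -14.4, against 13.5 to 34.3 for the other APAP libraries and -46.1 and -54.5 for CTRL. The 5 hepatocyte markers in the table (Alb, Apoa1, Ttr, Serpinc1 and Apob) were high in every library, Alb at 54480 CPM or more. Their summed level was 74420 to 83110 CPM in APAP_MSC, 69190 to 82000 CPM in APAP_PBS and 89910 to 105800 CPM in CTRL, so it was lower in both APAP groups. Most of this sum is Alb, so it is close to a measure of 1 gene. Apoa1, Ttr and Serpinc1 were also lower on average in both APAP groups. Apob went the other way, with means of 6239, 6251 and 5808 CPM in APAP_MSC, APAP_PBS and CTRL, and was not called. Levels that are compared between groups below are CPM, counts scaled to the library's total after TMM scaling of the libraries. Levels that are compared between genes are the deposited FPKM, which are also scaled to gene length.

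Of the 44 members, 36 had enough counts to be tested, and a few carriers held most of the family's mRNA. Family here means these 44 members, so Slc25a13, Slc25a15 and Slc25a20 are in none of its sums, shares or rankings. Slc25a5, an ADP/ATP carrier, had the highest level, with 226 ± 17.4 FPKM in APAP_MSC, 228 ± 10.9 FPKM in APAP_PBS and 254 ± 36.1 FPKM in CTRL (SD, n = 3, 3 and 2). Its own share of the family's summed FPKM lay between 18.1% and 22.1% in the 8 libraries. It was followed, by mean FPKM over the 8 libraries, by the glutathione carrier Slc25a39 at 151 FPKM, the phosphate carrier Slc25a3 at 139 FPKM, the liver-enriched Slc25a47 at 124 FPKM, the citrate carrier Slc25a1 at 86.8 FPKM and the calcium-regulated ATP-Mg/phosphate carrier Slc25a23 at 73.6 FPKM. Together these 6 genes made up 67.3% to 73.2% of the family's summed FPKM. The order is not the same in every group, since Slc25a47 averaged 106 ± 50.7 FPKM in APAP_MSC, 108 ± 22.8 FPKM in APAP_PBS and 174 ± 70.0 FPKM in CTRL, where it was second, and its share of the family ran from 6.24% to 16.6%. Slc25a39 and Slc25a3 were close in level but kept their order in all 8 libraries, at a ratio of 1.01 to 1.28. Slc25a39 had 154 ± 16.7, 155 ± 15.6 and 142 ± 21.3 FPKM in APAP_MSC, APAP_PBS and CTRL, and Slc25a3 had 143 ± 11.4, 136 ± 4.61 and 138 ± 24.2 FPKM.

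Carriers with like substrates differed widely in level. Slc25a4, the ADP/ATP carrier of heart and skeletal muscle, averaged 2.16 FPKM over the libraries, against 234 FPKM for Slc25a5. Slc25a40, the near relative of Slc25a39, averaged 1.31 FPKM. Both mitoferrins, which import iron, were alike in level, with 8.21 FPKM for Slc25a37 and 7.25 FPKM for Slc25a28. Among the 44 members, which leave out Slc25a13 and Slc25a15, the leading amino acid carrier was the glutamate carrier Slc25a22 at 33.3 FPKM. The leading cofactor carrier was Slc25a17 at 28.7 FPKM, and Slc25a30 led the carriers related to uncoupling proteins at 4.78 FPKM. Slc25a33 led the pyrimidine nucleotide carriers at 8.03 FPKM.

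**Figure D1:**
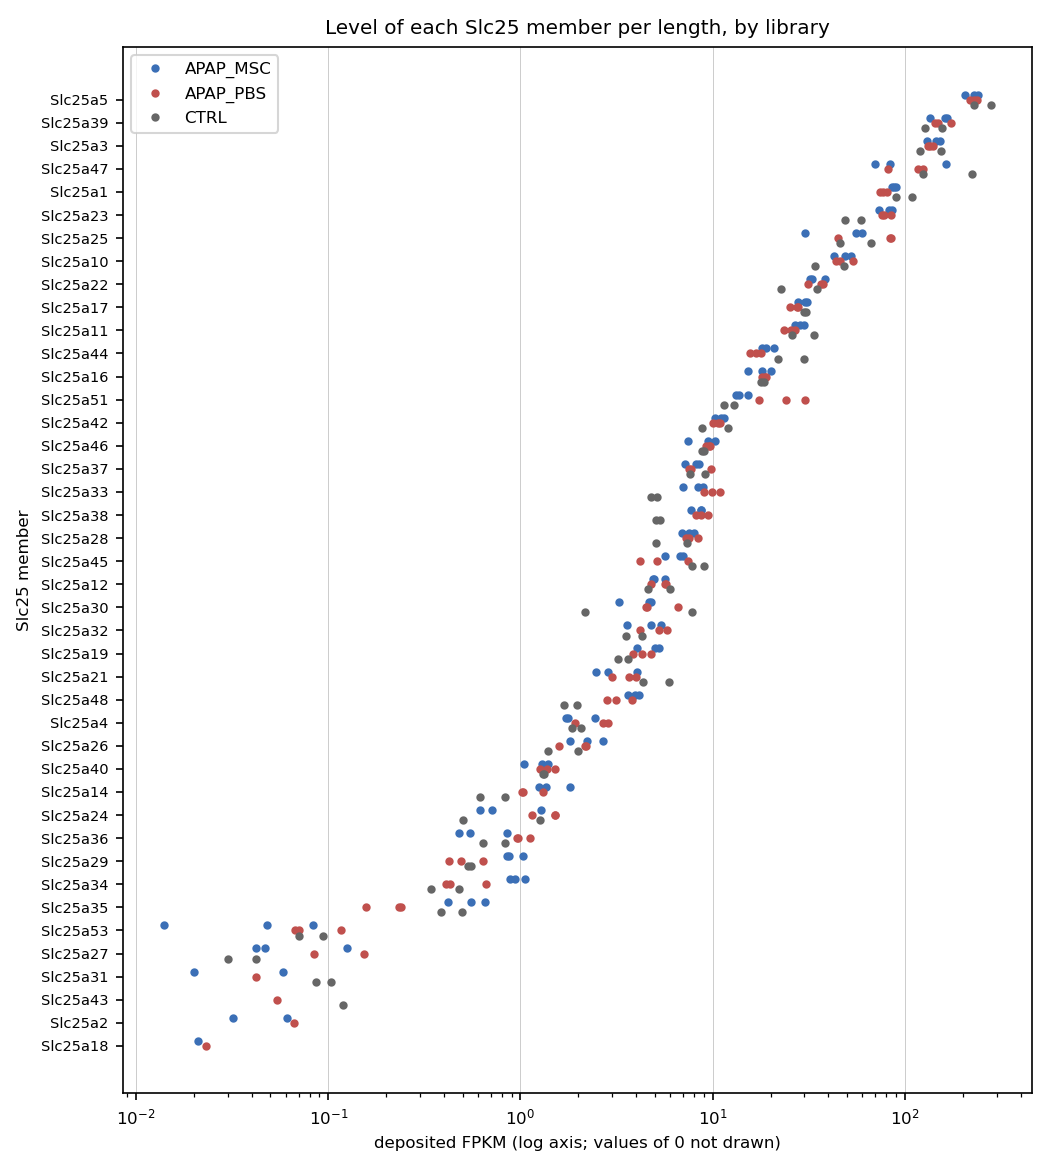
Deposited FPKM (log axis) of the members with any value above 0, ordered by their mean over the 8 libraries. Each point is a library, with APAP_MSC drawn above APAP_PBS and CTRL in each row. Slc25a5 leads at 234 FPKM on average, and the libraries of the 3 groups lie close together for most members.

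The other 8 members (Slc25a2, Slc25a18, Slc25a27, Slc25a31, Slc25a41, Slc25a43, Slc25a53 and Slc25a54) were too low to be tested. Their highest level in any library was 0.414 CPM, from at most 10 counts. Slc25a41 and Slc25a54 had a count of 0 in all 8 libraries.

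The family's summed level was of the same order in all groups. Summed FPKM was 1132 ± 13.7 in APAP_MSC, 1148 ± 46.8 in APAP_PBS and 1190 ± 218 in CTRL (SD, n = 3, 3 and 2), and the CTRL libraries lay on both sides of the APAP libraries. On the TMM-scaled CPM scale the sums were 2095 ± 164, 2058 ± 119 and 2425 ± 274 in the same order of groups. The 3 APAP_PBS sums were then all below both CTRL sums, while APAP_MSC overlapped CTRL.

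What APAP did to the carriers is addressed by APAP_PBS against CTRL. In APAP_PBS 6 carriers fell, which serve branched-chain amino acids (Slc25a44), citrate (Slc25a1), oxoglutarate and malate (Slc25a11), peroxisomal cofactors (Slc25a17) and ADP/ATP exchange (Slc25a5), with Slc25a45 as the sixth. In the same comparison 3 rose, which serve pyrimidine nucleotides (Slc25a33), choline (Slc25a48) and glycine (Slc25a38). All these changes were below 2-fold. The 9 called members are 25% of the 36 tested, where 10.3% of all 12722 genes were called in either direction, 4.29% higher and 5.97% lower. The median log2 fold change was -0.13 over the 36 members and 0.03 over all genes, but with libraries scaled by their totals alone these medians were 0.11 and 0.27, so the sign of the family's median depends on the scaling while it stays below that of all genes. With that scaling 5 members were called higher and 2 lower, and over all genes the split went to 1620 higher and 371 lower, against 546 higher and 760 lower with TMM.

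In 22 members the APAP_PBS and CTRL libraries did not overlap, 6 with APAP_PBS higher and 16 with APAP_PBS lower. That is 61.1% of the tested members, against 47.6% of all genes, of which 25% were higher and 22.6% lower. With library totals alone, or with the deposited FPKM, the split of the members was 9 higher and 7 lower. That is 44.4% of the members on both scales, which is below the share of all genes. Of all genes 56.5% did not overlap with library totals (47.2% higher and 9.28% lower). With FPKM the share was 54.5% (45.2% higher and 9.35% lower). The other 27 members were not called, and for 23 of the 36 tested the 95% interval of the fold change lay within 2-fold either way. In bulk tissue, fewer cells of a type and less RNA per cell cannot be told apart. The hepatocyte marker sum, which is mostly Alb, was lower in APAP_PBS than in CTRL (69190 to 82000 against 89910 to 105800 CPM, 1 of 5 markers called lower). Of the monocyte and macrophage markers 2 of 7 tested were called higher (sums of 146 to 252 CPM in APAP_PBS and 112 to 176 CPM in CTRL). Of the tested neutrophil markers 2 of 4 were called higher (S100a8 and Retnlg; sums of 3.74 to 16.4 CPM in APAP_PBS and 0.80 to 16.7 CPM in CTRL), of the cholangiocyte markers 1 of 5 (Sox9; 73.7 to 93.3 and 50.8 to 84.2 CPM) and of the stellate markers 1 of 6 (Des; 221 to 238.5 and 227 to 237 CPM). Most of the higher CTRL neutrophil sum is Ltf, which had 15.3 and 0 CPM in CTRL and 0.113, 3.85 and 0.117 CPM in APAP_PBS. S100a8 had 4.24, 2.15 and 1.40 CPM in APAP_PBS, against 0.356 and 0.047 CPM in CTRL, the last under 3 counts. S100a9 had 10.2, 3.44 and 1.40 CPM against 0.85 and 0.56 CPM, also without overlap, and was not called. Kupffer and endothelial markers had 0 of 5 called each. The part of these cell types in the carrier results was not tested.

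**Figure D2:**
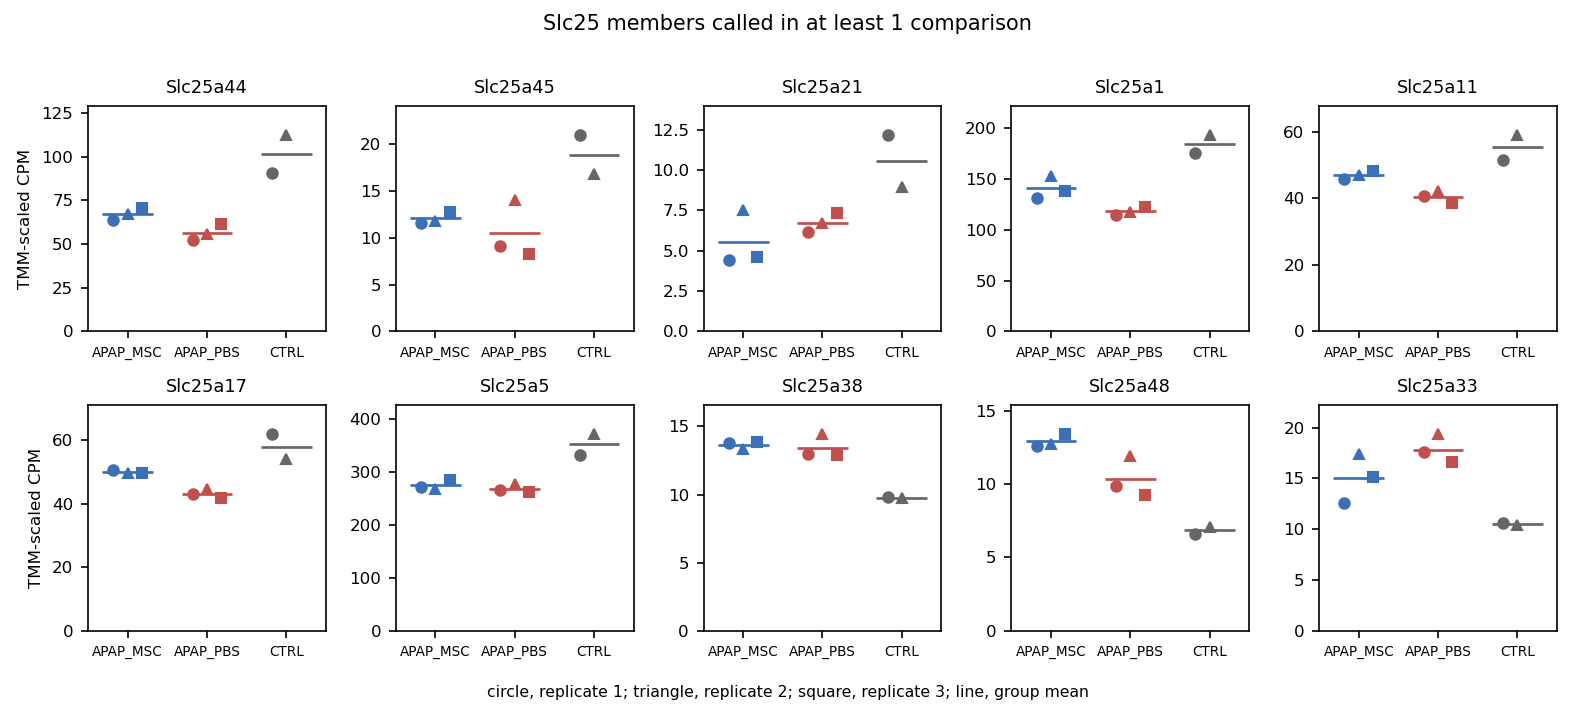
TMM-scaled CPM of the 10 members called in at least 1 comparison, by library (points, a symbol for each replicate number) with the group mean as a line, each panel starting at 0. Slc25a44 lies at 52.0 to 61.6 CPM in APAP_PBS, below both CTRL libraries at 90.4 and 112 CPM, and Slc25a48 lies above CTRL in all 6 APAP libraries.

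Promoter windows are shown for 5 of these genes because they moved in opposite directions in the same livers: Slc25a1 and Slc25a11, which fell, and Slc25a33, Slc25a48 and Slc25a38, which rose. They are the 3 that rose and the 2 that fell with the smallest adjusted p among those with a single window. The sequences are from RefSeq, build GRCm38.p6, 250 bases before to 50 bases after the gene's start, read 5′ to 3′ on the gene's strand. The start is that of RefSeq. For Slc25a11 it lies 440 bases inside the gene by the GENCODE annotation, so its whole window is within the GENCODE gene, while for the other 4 genes both annotations put the start within 10 bases of each other. In all, 33 of the 44 members have a window there. Capitals mark matches, on either strand, to 6 short motifs: the E-box is CACGTG, the box named for its letters is CCAAT, the GC box is read as GGGCGG, the motif of the ETS factors as CCGGAAG, the TATA box as TATAAA, and the part of the cyclic AMP response element as TGACGT. The marked matches do not overlap one another.
Slc25a1 (chr16:17928170-17928469, minus strand): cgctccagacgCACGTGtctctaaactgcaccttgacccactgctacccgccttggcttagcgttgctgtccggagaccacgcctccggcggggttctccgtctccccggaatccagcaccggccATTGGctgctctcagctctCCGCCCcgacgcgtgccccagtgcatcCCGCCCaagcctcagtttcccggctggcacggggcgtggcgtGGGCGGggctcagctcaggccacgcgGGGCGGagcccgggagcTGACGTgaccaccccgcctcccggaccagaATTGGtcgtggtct
Slc25a11 (chr11:70646990-70647289, minus strand): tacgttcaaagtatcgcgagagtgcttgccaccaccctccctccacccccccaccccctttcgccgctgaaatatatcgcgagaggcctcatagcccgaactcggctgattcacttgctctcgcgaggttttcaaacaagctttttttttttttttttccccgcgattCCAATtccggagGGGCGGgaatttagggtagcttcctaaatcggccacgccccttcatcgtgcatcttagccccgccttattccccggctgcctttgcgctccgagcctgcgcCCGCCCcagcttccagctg
Slc25a33 (chr4:149774218-149774517, minus strand): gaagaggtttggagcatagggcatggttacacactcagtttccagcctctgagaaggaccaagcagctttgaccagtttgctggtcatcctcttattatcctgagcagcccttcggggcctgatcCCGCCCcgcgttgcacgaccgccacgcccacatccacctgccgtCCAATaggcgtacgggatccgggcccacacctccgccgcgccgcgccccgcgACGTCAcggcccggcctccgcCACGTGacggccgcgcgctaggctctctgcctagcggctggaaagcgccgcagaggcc
Slc25a48 (chr13:56438105-56438404, plus strand): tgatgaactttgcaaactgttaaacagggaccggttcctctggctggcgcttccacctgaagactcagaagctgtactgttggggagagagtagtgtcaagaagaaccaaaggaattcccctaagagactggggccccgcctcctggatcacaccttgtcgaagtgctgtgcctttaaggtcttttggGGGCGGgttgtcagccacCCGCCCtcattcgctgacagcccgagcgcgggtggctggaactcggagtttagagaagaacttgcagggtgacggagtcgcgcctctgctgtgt
Slc25a38 (chr9:120110132-120110431, plus strand): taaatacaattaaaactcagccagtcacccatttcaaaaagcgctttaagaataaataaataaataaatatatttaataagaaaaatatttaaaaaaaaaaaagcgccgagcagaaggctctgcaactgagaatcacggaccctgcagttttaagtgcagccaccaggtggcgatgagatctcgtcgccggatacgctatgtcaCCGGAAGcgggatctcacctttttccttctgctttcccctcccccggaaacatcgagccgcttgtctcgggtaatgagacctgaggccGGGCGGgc

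The Slc25a1 window holds 1 E-box, 2 CCAAT boxes, 4 GC boxes and 1 part of the cyclic AMP element, and that of Slc25a33, which moved the other way, holds 1 of each of these motifs. Slc25a11 has 1 CCAAT box and 2 GC boxes, Slc25a48 has 2 GC boxes, and Slc25a38 has 1 GC box and 1 ETS motif. None of the 5 windows holds the TATA box on either strand. Over all 32851 windows of this length, 7.15% hold the E-box, 37.4% the CCAAT box, 35.7% the GC box, 8.86% the ETS motif, 13.6% the TATA box and 7.51% the cyclic AMP element's part. Of the 42 windows of the members, 6, 21, 35, 6, 2 and 5 hold these motifs in that order. A match is a stretch of letters, and no binding was measured.

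Among the amino acid carriers Slc25a44 fell and Slc25a38 rose. Slc25a44, which brings branched-chain amino acids into mitochondria in mouse brown fat, had 52.0, 55.6 and 61.6 CPM in APAP_PBS, against 90.4 and 112 CPM in CTRL. The groups lie well apart, and its log2 fold change was -0.85 ± 0.12 (SE), with an adjusted p of 0.00254. It was called whichever library was left out, with log2 fold changes of -0.99 to -0.67, and in all 17 alternative settings.

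Slc25a38, which supplies mitochondria with glycine for the first step of heme synthesis, had 13.0, 14.4 and 12.9 CPM in APAP_PBS, against 9.83 and 9.73 CPM in CTRL. Both groups were tight and did not overlap, and the log2 fold change was 0.46 ± 0.13 (SE) with an adjusted p of 0.0437. It was not called by DESeq2's Wald test (adjusted p = 0.0762) or without the low-count filter (0.0629). Its call was also lost when APAP_MSC replicate 1 (adjusted p = 0.0641), any APAP_PBS replicate (0.1, 0.135 and 0.0905 for replicates 1, 2 and 3) or either CTRL replicate (0.145 and 0.165) was left out. With a library left out the log2 fold change stayed between 0.41 and 0.49. Of the erythroid markers 8 are in the table (summed 60.7 to 124 CPM in APAP_MSC, 71.0 to 156 CPM in APAP_PBS and 138 and 141 CPM in CTRL), with Epb42 at 0 in every library and 1 of 5 tested called: Alas2, which makes up most of the CTRL sum, was lower, at a log2 fold change of -1.09. The 4 globin genes had log2 fold changes of 2.60 to 3.03, none called. Their part in the Slc25a38 result was not tested. Of the other amino acid carriers, Slc25a22 was level, with 68.4 ± 6.05 CPM in APAP_PBS and 68.2 ± 12.1 CPM in CTRL (SD, n = 3 and 2; 95% interval of the log2 fold change -0.30 to 0.30).

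In the citrate and dicarboxylate group 2 of 4 members fell. Slc25a1 exports citrate, from which the cytosol makes acetyl-CoA for fat synthesis. Its levels were 115, 117 and 122 CPM in APAP_PBS, against 176 and 193 CPM in CTRL. Without overlap between the groups, the log2 fold change was -0.64 ± 0.11 (SE), with an adjusted p of 0.00579. Without CTRL replicate 2 it was -0.56, with an adjusted p of 0.0528. In limma on the deposited FPKM it was -0.35 with log2(FPKM + 1) and -0.36 with log2(FPKM + 0.1), and not called (adjusted p = 0.0645 and 0.0618).

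Slc25a11 exchanges oxoglutarate for malate, a step of the malate-aspartate shuttle. It had 40.5, 42.3 and 38.6 CPM in APAP_PBS, against 51.6 and 58.9 CPM in CTRL, so every APAP_PBS library was below both CTRL libraries. Its log2 fold change was -0.45 ± 0.11 (SE), with an adjusted p of 0.0217. The call was lost without any 1 of the APAP_PBS replicates (adjusted p = 0.0783, 0.0508 and 0.0862 for replicates 1, 2 and 3) and without CTRL replicate 2 (0.172), with log2 fold changes of -0.48 to -0.34. With library totals alone its log2 fold change was -0.21 and it was not called (adjusted p = 0.265), nor was it in limma on log2(FPKM + 1) (-0.22, 0.274). Its exons overlap those of Rnf167 on the opposite strand, which was not called, with a log2 fold change of -0.23, and no strand is stated for the counting. Slc25a10, the dicarboxylate carrier, had 91.4 ± 8.75 CPM in APAP_PBS and 92.7 ± 17.1 CPM in CTRL (SD, n = 3 and 2) and was not called.

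Slc25a5 was the only called member of the ADP/ATP and phosphate carriers. It had 265, 276 and 262 CPM in APAP_PBS, against 332 and 370 CPM in CTRL. The groups did not overlap, and the log2 fold change was -0.39 ± 0.11 (SE), with an adjusted p of 0.0437. It was not called with library totals alone (-0.15, adjusted p = 0.416), in limma on log2(FPKM + 1) (-0.15, 0.412) or without the low-count filter (-0.38, 0.072). It was also not called without APAP_MSC replicate 1 (0.0602), without any 1 of the APAP_PBS replicates (0.136, 0.0967 and 0.138 for replicates 1, 2 and 3) or without either CTRL replicate (0.0823 and 0.234), with log2 fold changes of -0.46 to -0.30. A processed copy of this gene exists in the mouse genome, so its counts may include or lack reads shared with it.

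Of the 7 cofactor carriers Slc25a17 was the one called. It sits in the peroxisome membrane and carries cofactors such as coenzyme A. It had 43.0, 44.7 and 41.9 CPM in APAP_PBS, against 61.8 and 54.1 CPM in CTRL, with no overlap. With an SE of 0.10, the log2 fold change was -0.42, with an adjusted p of 0.0261. The call was lost when any 1 of the APAP_PBS replicates (adjusted p = 0.0916, 0.0622 and 0.0945 for replicates 1, 2 and 3) or either CTRL replicate (0.183 and 0.0536) was left out, with log2 fold changes of -0.51 to -0.32, with library totals alone (-0.18, adjusted p = 0.296) and in limma on log2(FPKM + 1) (-0.16, 0.328). Slc25a51, the NAD carrier, had 73.1, 42.2 and 58.7 CPM in APAP_PBS, against 35.2 and 41.3 CPM in CTRL. All APAP_PBS libraries were above CTRL, replicate 2 only just, and it was not called (log2 fold change 0.59 ± 0.20, SE; adjusted p = 0.0904). It was called higher with library totals alone, by DESeq2's Wald test, in limma on both FPKM scales and without APAP_PBS replicate 2. It lies outside the rule for named genes and was chosen after its values were seen.

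Slc25a33, a pyrimidine nucleotide carrier, rose the most of the called members. It had 17.6, 19.3 and 16.6 CPM in APAP_PBS, against 10.6 and 10.4 CPM in CTRL. The groups were far apart for their spread, and the log2 fold change was 0.77 ± 0.16 (SE), with an adjusted p of 0.0123. The value hardly moved without either CTRL library (0.79 and 0.76), but the adjusted p was then 0.0619 and 0.0804. Its exons overlap the antisense gene Gm13068, which was not among the tested genes.

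Slc25a48, which carries choline into mitochondria, had 9.89, 11.9 and 9.24 CPM in APAP_PBS, against 6.62 and 7.10 CPM in CTRL. No APAP_PBS library reached down to CTRL, and the log2 fold change was 0.59 ± 0.16 (SE), with an adjusted p of 0.0353. Without APAP_MSC replicate 1 (adjusted p = 0.0547), any 1 of the APAP_PBS replicates (0.0788, 0.115 and 0.0526 for replicates 1, 2 and 3) or either CTRL replicate (0.152 and 0.114) it was not called, at log2 fold changes of 0.48 to 0.67.

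Slc25a45 had 9.10, 14.1 and 8.25 CPM in APAP_PBS, against 21.0 and 16.8 CPM in CTRL. APAP_PBS replicate 2 came nearest to CTRL, still without overlap, and the log2 fold change was -0.84 ± 0.21 (SE), with an adjusted p of 0.0285. The call was lost without APAP_PBS replicate 1 (adjusted p = 0.104) or 3 (0.0865), without either CTRL replicate (0.172 and 0.0646), with log2 fold changes of -0.98 to -0.67, with library totals alone (-0.59, adjusted p = 0.0732), in limma on log2(FPKM + 1) (-0.54, 0.087) and with only the 2 groups in the fit (-0.85, 0.0521).

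**Figure D3:**
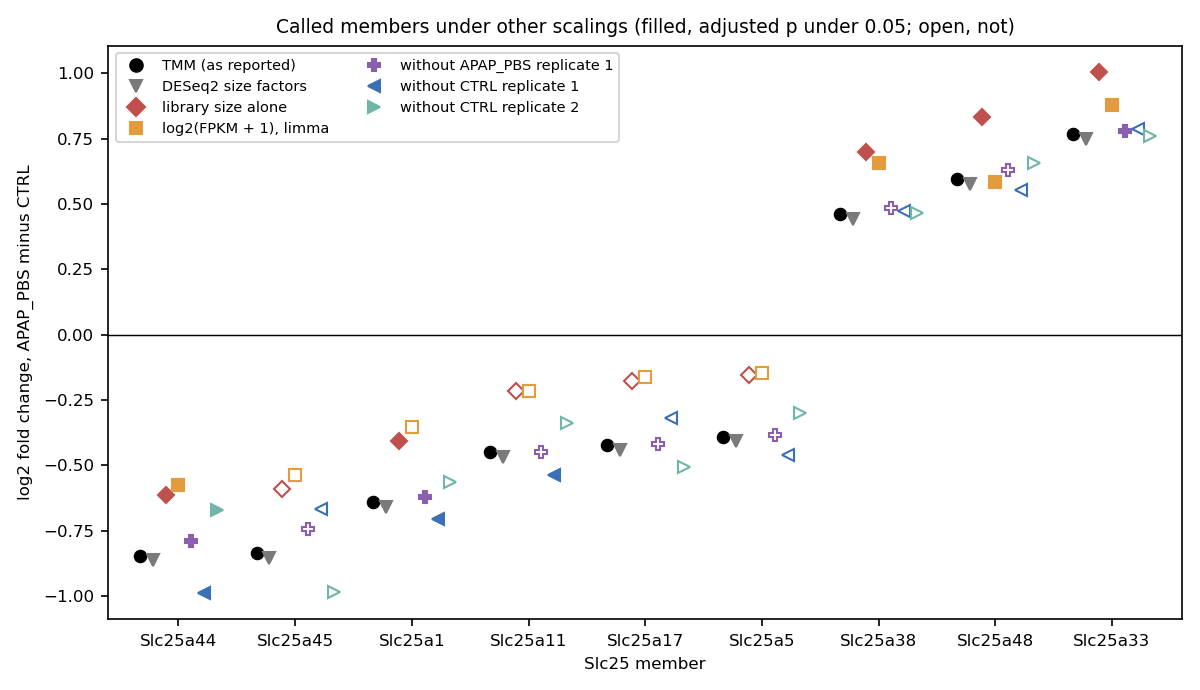
Log2 fold change, APAP_PBS minus CTRL, of the 9 called members with the TMM scaling and under 6 other settings; filled symbols have an adjusted p under 0.05 and open symbols do not. All values keep their sign; Slc25a44 is filled throughout, while Slc25a5, Slc25a11, Slc25a17 and Slc25a45 turn open when libraries are scaled by their totals alone.

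Several members that led their roles in level showed no call. The calcium-regulated carrier Slc25a23 had 226, 225 and 254 CPM in APAP_PBS, against 173 and 189 CPM in CTRL. Its APAP_PBS libraries all lay above CTRL, and its log2 fold change of 0.38 ± 0.13 (SE) had an adjusted p of 0.084. It was called higher with library totals alone (0.61, adjusted p = 0.00977), by DESeq2's Wald test (0.36, 0.0495), with only the 2 groups in the fit (0.36, 0.0491), in limma on log2(FPKM + 1) (0.56, 0.0194) and without APAP_MSC replicate 2 (0.38, 0.0425). Slc25a39 overlapped between the groups, and its direction depends on the scale: it had 203 ± 15.2 CPM in APAP_PBS and 219 ± 22.7 CPM in CTRL, but 155 ± 15.6 FPKM in APAP_PBS and 142 ± 21.3 FPKM in CTRL (SD, n = 3 and 2). Slc25a37 had 31.5 ± 4.51 CPM in APAP_PBS and 38.4 ± 1.88 CPM in CTRL and was not called (adjusted p = 0.229).

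Libraries of the same group differed most in Slc25a30, Slc25a24, Slc25a47, Slc25a25 and Slc25a36. These are the 5 of 36 tested members whose highest library was over 2 times the lowest in some group, while 23 stayed under 1.5 times in every group. Slc25a47 had 105, 271 and 127 CPM in APAP_MSC, 173, 121 and 192 CPM in APAP_PBS, and 234 and 379 CPM in CTRL. APAP_MSC replicate 2 lay among the CTRL values and the other APAP libraries lay below them. The log2 fold change of APAP_PBS over CTRL was -0.92 ± 0.45 (SE), with an adjusted p of 0.257. That of APAP_MSC over CTRL was -0.87 ± 0.45 (SE; adjusted p = 0.326), and without APAP_MSC replicate 2 it was called, at -1.40 (adjusted p = 0.0206). Slc25a30 had 32.7 and 8.27 CPM in the CTRL libraries, which enclose the 12.2 to 22.0 CPM of all 6 APAP libraries. Its log2 fold change of APAP_PBS over CTRL was -0.22 ± 0.53 (SE; adjusted p = 0.841), and 1.07 without CTRL replicate 1 (adjusted p = 0.0501). Against CTRL replicate 1 alone APAP_MSC was called lower (-1.21, adjusted p = 0.0301), and with CTRL replicate 2 alone its value was 0.77 (adjusted p = 0.188).

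Whether MSCs altered the carriers after APAP is addressed by APAP_MSC against APAP_PBS. In edgeR's quasi-likelihood test 0 of 36 members were called, where 0.00786% of all genes, which is 1 gene, was called. DESeq2 also called 0 members, with 17 genes higher and 24 lower over all genes. At an unadjusted p under 0.05 there were 9 members, 8 higher and 1 lower, which is to be read against 6.62% of all genes (371 higher and 471 lower). The median log2 fold change was 0.05 over the members and -0.01 over all genes, and with library totals alone the members' median was -0.0041 and that of all genes -0.06. For 27 members the 95% interval lay within 2-fold either way.

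In 10 members every APAP_MSC library lay above every APAP_PBS library, and in 0 members below; this is 27.8% of the members, against 13.8% of all genes, 6.8% higher and 7.04% lower. With library totals alone or with FPKM there were 6 members above and 3 below, 25% of the members on both scales. Of all genes 12.9% did not overlap with library totals (3.58% above and 9.29% below). With FPKM the share was 12.3% (3.69% above and 8.65% below). Without APAP_MSC replicate 2, the library that stood apart, there were 12 above and 4 below with TMM. That is 44.4% of the members, against 27.1% of all genes (13.6% above and 13.4% below). The cholangiocyte marker sum was lower without overlap (52.0 to 58.2 CPM in APAP_MSC and 73.7 to 93.3 CPM in APAP_PBS). Most of this sum is Spp1 (35.5 to 39.8 and 46.0 to 51.0 CPM), and the groups overlapped in Krt7 and Epcam. Neutrophil markers summed to 1.52 to 9.39 CPM in APAP_MSC and 3.74 to 16.4 CPM in APAP_PBS, and monocyte and macrophage markers to 117 to 165 CPM and 146 to 252 CPM. The highest APAP_MSC neutrophil sum, that of replicate 1, is mostly Ltf at 6.24 CPM. S100a8 did not overlap, with 0.525, 0.403 and 0.156 CPM in APAP_MSC against 4.24, 2.15 and 1.40 CPM in APAP_PBS. None of these marker genes was called in this comparison, and their part in the carrier values was not tested. The 10 members without overlap are named after their values were seen, and their adjusted p-values were all 0.696 or more.

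The 3 members with the largest difference are low. Slc25a35, whose substrate is not settled, had 1.22, 1.25 and 0.978 CPM in APAP_MSC, against 0.568, 0.333 and 0.468 CPM in APAP_PBS. CTRL had 1.07 and 0.846 CPM, so the APAP_PBS libraries were the low ones. The log2 fold change of APAP_MSC over APAP_PBS was 1.34 ± 0.40 (SE), with an adjusted p of 0.696. Its exons overlap those of Rangrf on the opposite strand, which had a log2 fold change of -0.12.

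Slc25a34, a near relative of Slc25a35, had 2.68, 2.46 and 2.37 CPM in APAP_MSC, against 1.02, 1.66 and 1.11 CPM in APAP_PBS. CTRL, at 1.07 and 1.36 CPM, was at the level of APAP_PBS. APAP_MSC exceeded APAP_PBS by 0.97 ± 0.29 (SE) on the log2 scale, with an adjusted p of 0.696. Slc25a29, a carrier of basic amino acids, had 1.92, 1.79 and 1.60 CPM in APAP_MSC, against 0.904, 0.787 and 1.23 CPM in APAP_PBS (log2 fold change 0.87 ± 0.31, SE; adjusted p = 0.698). It lies head to head with Slc25a47 on chromosome 12 (GRCm38: Slc25a29 at 108825873 to 108835883 on the minus strand, Slc25a47 at 108836046 to 108856815 on the plus strand), and Slc25a47 did not show that order of groups.

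The citrate, branched-chain amino acid and oxoglutarate carriers had smaller differences. Slc25a1 had 131, 153 and 138 CPM in APAP_MSC, against 115, 117 and 122 CPM in APAP_PBS (log2 fold change 0.25 ± 0.10, SE; adjusted p = 0.725). Slc25a44 gave 63.5, 67.2 and 70.4 CPM in APAP_MSC, against 52.0, 55.6 and 61.6 CPM in APAP_PBS (0.25 ± 0.11, SE; adjusted p = 0.75). Slc25a11 had 45.9, 46.8 and 48.1 CPM in APAP_MSC, against 40.5, 42.3 and 38.6 CPM in APAP_PBS (0.21 ± 0.10, SE; adjusted p = 0.75). In all 3 genes every APAP_MSC library lay between the APAP_PBS and the CTRL libraries, given above; the comparisons share the APAP_PBS libraries.

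Slc25a17 had 50.6, 49.8 and 49.8 CPM in APAP_MSC, against 43.0, 44.7 and 41.9 CPM in APAP_PBS (0.21 ± 0.09, SE; adjusted p = 0.746). Slc25a48 had 12.6, 12.8 and 13.4 CPM in APAP_MSC, against 9.89, 11.9 and 9.24 CPM in APAP_PBS (0.32 ± 0.13, SE; adjusted p = 0.743), with both groups above CTRL. The remaining members without overlap were Slc25a14 and the phosphate carrier Slc25a3, at log2 fold changes of 0.46 and 0.12. Slc25a51 was the member lower at an unadjusted p under 0.05, with 36.2, 43.0 and 39.7 CPM in APAP_MSC, against 73.1, 42.2 and 58.7 CPM in APAP_PBS. APAP_MSC replicate 2 and APAP_PBS replicate 2 overlap there (log2 fold change -0.55 ± 0.18, SE; adjusted p = 0.696).

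**Figure D4:**
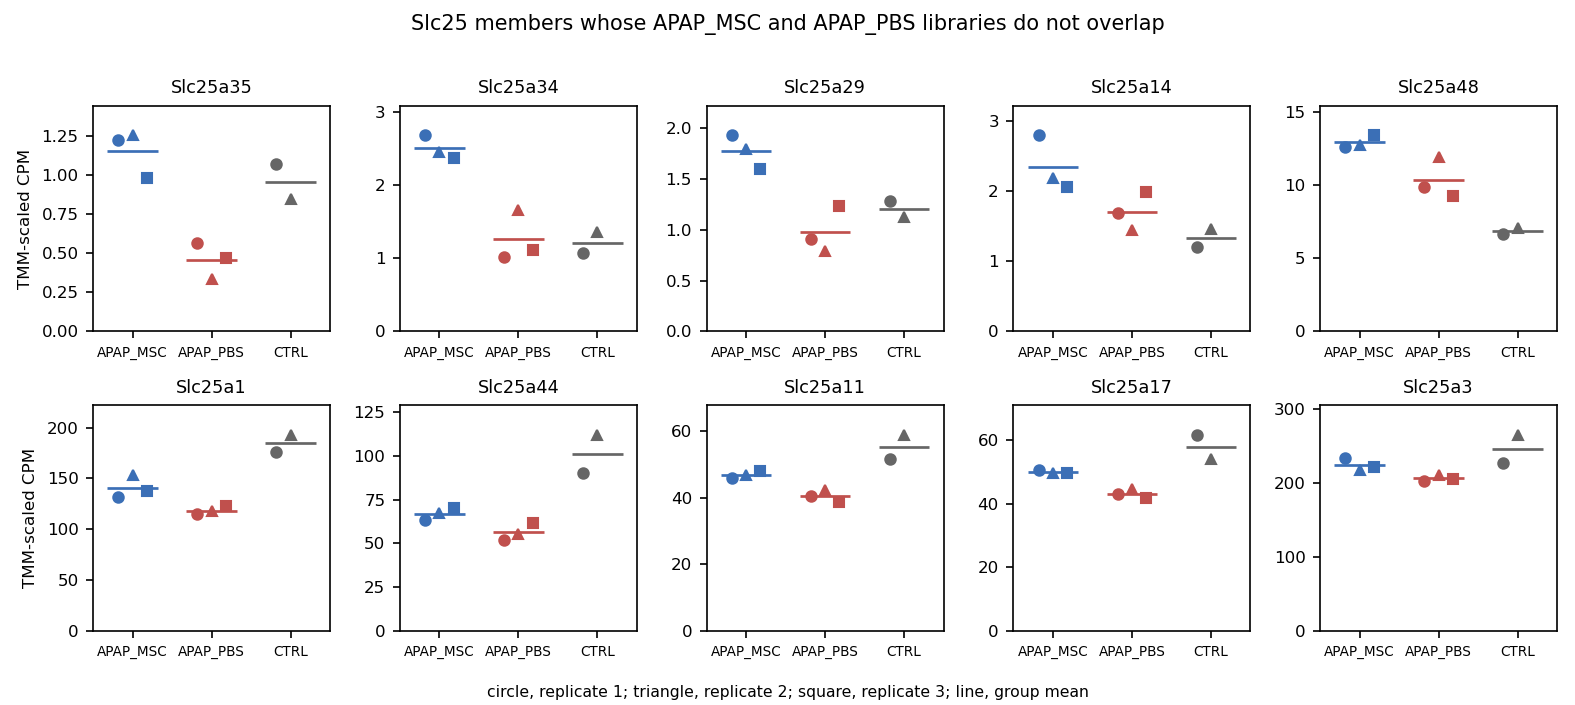
TMM-scaled CPM of the 10 members whose APAP_MSC libraries all lie above the APAP_PBS libraries, by library with the group mean as a line, each panel starting at 0. Slc25a34 lies at 2.37 to 2.68 CPM in APAP_MSC, above APAP_PBS at 1.02 to 1.66 CPM; none of the 10 passed the test.

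APAP_MSC against CTRL called 3 members, 8.33% of those tested, where 5.84% of all genes were called (2.52% higher, 3.32% lower). Slc25a48 rose, with 12.6, 12.8 and 13.4 CPM in APAP_MSC, against 6.62 and 7.10 CPM in CTRL. The lowest APAP_MSC library was above both CTRL libraries, at a log2 fold change of 0.91 ± 0.16 (SE) and an adjusted p of 0.00863. Without CTRL replicate 1 it was 0.87, with an adjusted p of 0.0595.

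Slc25a44 fell, with 63.5, 67.2 and 70.4 CPM in APAP_MSC, against 90.4 and 112 CPM in CTRL. Its groups did not overlap, and the log2 fold change was -0.60 ± 0.12 (SE), with an adjusted p of 0.0199. Without APAP_MSC replicate 1 the adjusted p was 0.0777, without CTRL replicate 2 it was 0.155 at a log2 fold change of -0.42, and with library totals alone it was 0.0866 at -0.41. In limma on log2(FPKM + 1) it was 0.135 at -0.39, and with only the 2 groups in the fit 0.0635 at -0.60. Slc25a21, the carrier of oxodicarboxylates from lysine and tryptophan breakdown, also fell. It had 4.43, 7.52 and 4.59 CPM in APAP_MSC, against 12.2 and 8.98 CPM in CTRL, with APAP_MSC replicate 2 nearest to CTRL.

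The log2 fold change of Slc25a21 was -0.93 ± 0.24 (SE), with an adjusted p of 0.0459. This call was kept in 1 of the 8 fits that leave out a library, the one without APAP_MSC replicate 2 (-1.21, adjusted p = 0.00442). Without APAP_MSC replicate 1 or 3 the adjusted p was 0.135 and 0.127, without each APAP_PBS replicate 0.0664, 0.0721 and 0.0768, and without each CTRL replicate 0.295 and 0.0759. It was also not called with library totals alone (-0.75, adjusted p = 0.0552), in limma on log2(FPKM + 1) (-0.59, 0.0965) or with only the 2 groups in the fit (-0.93, 0.115). In APAP_PBS the gene had 6.16, 6.71 and 7.31 CPM and was not called against CTRL (-0.65 ± 0.24, SE; adjusted p = 0.113). Pax9, whose exons overlap it on the opposite strand, was not among the tested genes.

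The libraries of APAP_MSC and CTRL did not overlap in 18 members, 8 higher and 10 lower in APAP_MSC, which is 50% of those tested against 35.5% of all genes (17.8% higher and 17.7% lower). With library totals alone there were 9 higher and 4 lower. That is 36.1% of the members, against 38.8% of all genes (30.5% higher and 8.35% lower). Without APAP_MSC replicate 2 there were 8 higher and 14 lower with TMM. This is 61.1% of the members, against 51.6% of all genes (26.9% higher and 24.7% lower). The median log2 fold change was -0.14 over the members and 0.01 over all genes, and with library totals alone these were 0.04 and 0.20, so the sign of the family's median again follows the scaling. Called members numbered 4 higher and 0 lower with library totals alone. Over all genes the split was then 755 higher and 236 lower, against 321 higher and 422 lower with TMM. Slc25a38 (log2 fold change 0.48, adjusted p = 0.0513), Slc25a1 (-0.39, 0.0616), Slc25a33 (0.52, 0.0767) and Slc25a5 (-0.36, 0.0799) were not called in this comparison. The hepatocyte marker sum, mostly Alb, was lower in APAP_MSC than in CTRL as well (74420 to 83110 against 89910 to 105800 CPM), and its part in these results was not tested.

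**Figure D5:**
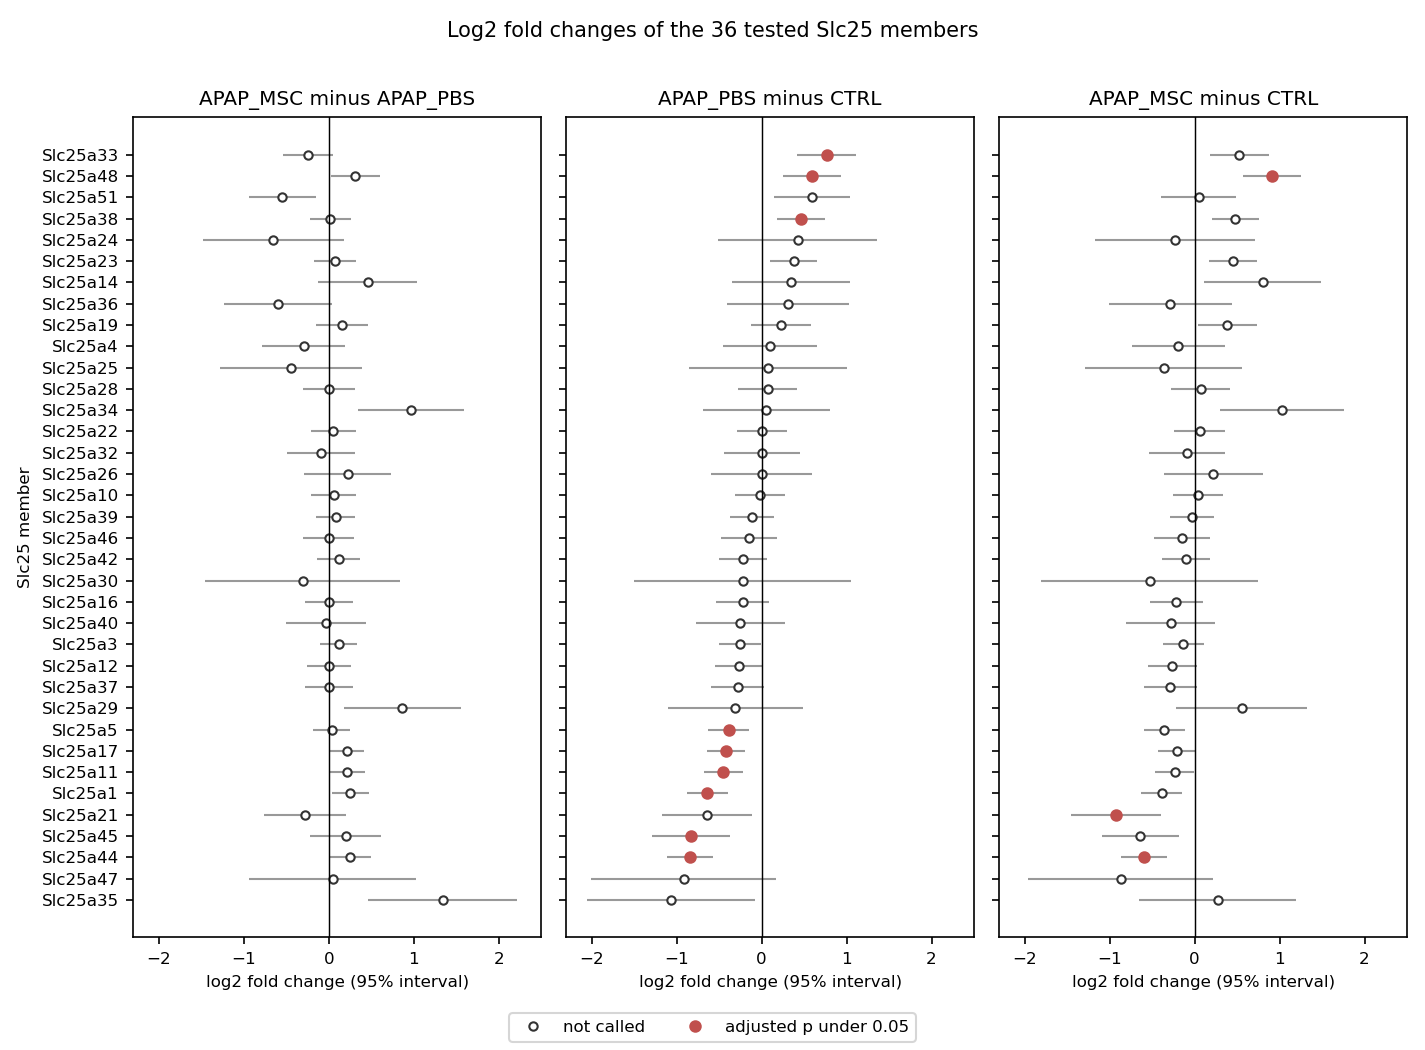
Log2 fold changes with 95% intervals of the 36 tested members, in the order of APAP_PBS minus CTRL, for the 3 comparisons. Filled red points are called, 0 of them in APAP_MSC minus APAP_PBS, 9 in APAP_PBS minus CTRL and 3 in APAP_MSC minus CTRL; the widest intervals belong to members whose libraries differ within a group, such as Slc25a30.

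The enzymes that work on the carriers' substrates were read from lists of genes chosen with earlier results of these data known. The counts below are to be read against the shares of all genes called in APAP_PBS against CTRL, 4.29% higher and 5.97% lower. In APAP_PBS against CTRL, 7 of 13 tested genes in the list of citrate formation, use and nearby steps fell, with a median log2 fold change of -0.49. The 1 that rose was Pck1 (1.91 ± 0.41, SE; adjusted p = 0.0281). Some genes of this list, such as Me1, Pcx, Pck1 and Pck2, do not act on citrate itself. ATP citrate lyase (Acly), which splits the citrate that Slc25a1 exports, had 202, 218 and 200 CPM in APAP_PBS, against 1259 and 1833 CPM in CTRL (log2 fold change -2.90 ± 0.17, SE; adjusted p = 6.98e-06). Citrate synthase (Cs) fell by 0.91 on the log2 scale (SE 0.13, adjusted p = 0.002), and malic enzyme (Me1) had a log2 fold change of -3.64 ± 0.42 (SE; adjusted p = 0.00432). Slc25a1 itself had -0.64 in the same comparison.

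Of 6 tested NADH shuttle enzymes 3 fell in APAP_PBS: Gpd2 (-1.76 ± 0.15, SE; adjusted p = 8.27e-05), Mdh1 (-0.75 ± 0.15, SE; adjusted p = 0.0114) and Gpd1 (-0.42 ± 0.12, SE; adjusted p = 0.0424). Slc25a11, which carries malate in one of these shuttles, fell in the same comparison. Among 15 tested genes of iron-sulfur clusters and mitochondrial iron 4 fell, led by the cysteine desulfurase Nfs1 (-0.49 ± 0.11, SE; adjusted p = 0.0171), while the mitoferrins were not called. In the calcium uniporter list 1 of 8 rose, the sodium-calcium exchanger Slc8b1 (0.56 ± 0.12, SE; adjusted p = 0.0159), and 1 fell, Letm1 (-0.52 ± 0.10, SE; adjusted p = 0.00905).

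Carriers reach the inner membrane through the import machinery of both membranes. In the list of carrier import genes 2 of 13 tested genes fell, the small chaperones Timm8a1 (-0.50 ± 0.13, SE; adjusted p = 0.0318) and Timm9 (-0.51 ± 0.14, SE; adjusted p = 0.0391). In the outer membrane channel list 1 of 3 fell, Vdac1 (-0.52 ± 0.11, SE; adjusted p = 0.0134). A list of other mitochondrial membrane proteins had 1 of 9 lower, Mtch2, at a log2 fold change of -0.52. The list of one-carbon and glycine enzymes had 1 of 10 lower, Shmt2 (-0.55). The list of biogenesis regulators had 1 of 13 lower, Ppargc1b (-1.68). In APAP_MSC against APAP_PBS 0 genes of these 9 lists were called. In APAP_MSC against CTRL 7 of the 13 genes of the citrate list fell, where 3.32% of all genes were lower. That comparison shares its CTRL libraries with the first.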

How the data were processed

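Liver mRNA was captured on oligo(dT) beads and made into NEBNext Ultra libraries, per the labels' protocols. The submitters' processing notes name fastp 0.18.0. Not given in the sources used here are the aligner, quantifier, genome build and annotation. The authors deposited estimated counts and FPKM (fragments scaled to gene length and library size), per the file headers, for 22183 genes in 8 libraries. Between 6.39% and 7.46% of the estimated counts per library are not whole, and these were rounded. Estimated counts share reads between near-identical genes. No strand setting is stated, so a gene and an antisense partner cannot be told apart; 14 members overlap exons of another gene, 12 of them on the opposite strand. Symbols came from GENCODE M21 (GRCm38), which matched 22128 IDs.

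Genes passing filterByExpr (12722) were fitted with edgeR 4.0.16 (R 4.3.3; TMM, robust glmQLFit, glmQLFTest), with 1 coefficient per group over all 8 libraries and thus 1 common estimate of the spread. Calls were made at a Benjamini-Hochberg adjusted p under 0.05 over all genes tested. The SE is the log2 fold change divided by the root of F. Alternatives used DESeq2 1.42.0, limma 3.58.1 on log2(FPKM + 1) or log2(FPKM + 0.1), which understates changes of low genes, other scalings and filters, and fits without each library. The script was tested on simulated counts.

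Named genes are the called members and the member with the highest FPKM of each of 10 roles, with up to 4 genes per other list. Other members (such as Slc25a3, Slc25a4, Slc25a10, Slc25a28, Slc25a40, Slc25a51 and those whose APAP_MSC and APAP_PBS libraries did not overlap) were named after their values were seen. Members, roles and lists were chosen with earlier results of these data known. No columns were left unused.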

Additional observations from a re-analysis of the deposited data

How the results depend on the processing

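Of the 12 calls of members, 1 (Slc25a44, APAP_PBS against CTRL) was kept in every fit that leaves out a library and in all 17 alternatives. In APAP_PBS against CTRL 3 members were called higher and 6 lower. Library totals alone gave 5 higher and 2 lower, limma on log2(FPKM + 1) and on log2(FPKM + 0.1) each gave 5 and 1, and leaving out a library gave 0 to 4 higher and 1 to 7 lower. The other settings (DESeq2's size factors, its Wald test, no filter or a stricter filter, only the libraries compared) stayed within 1.5 times of both counts. The counts over all genes moved as well, from 546 higher and 760 lower as reported. They were 1620 and 371 with library totals alone, 1188 and 326 on log2(FPKM + 1), and 1366 and 332 on log2(FPKM + 0.1). Leaving out an APAP library gave 236 to 790 higher and 329 to 920 lower over all genes. In APAP_MSC against CTRL 1 member was called higher and 2 lower. Library totals alone gave 4 and 0, DESeq2 2 and 4, the stricter filter 2 and 2, only the libraries compared 1 and 0, log2(FPKM + 1) 5 and 0, log2(FPKM + 0.1) 4 and 0, and leaving out a library 0 to 2 higher and 0 to 4 lower. Over all genes APAP_MSC against CTRL had 321 higher and 422 lower as reported. It had 755 and 236 with library totals alone, 519 and 698 with DESeq2, and 359 and 461 with the stricter filter. Only the libraries compared gave 124 and 170, log2(FPKM + 1) 498 and 207, and log2(FPKM + 0.1) 599 and 206. Leaving out an APAP library gave 132 to 657 higher and 142 to 733 lower over all genes. In APAP_MSC against APAP_PBS 0 members were called in any of these settings.

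Whether the replicate numbers pair the samples could not be settled, since deviations from the mean cancel within groups of 3 and 2 libraries. Same-numbered APAP_MSC and APAP_PBS libraries correlated at -0.0017, -0.0157 and -0.0633 in these deviations, and none of the 3 correlated best with its own number. Those of APAP_MSC and CTRL correlated at 0.186 and 0.133, and those of APAP_PBS and CTRL at -0.147 and -0.0293. With 2 CTRL libraries, each value has the opposite sign for the other CTRL library. With the replicate block 1 member was called higher and 2 lower in APAP_PBS against CTRL, 1 and 1 in APAP_MSC against CTRL, and 0 in APAP_MSC against APAP_PBS. Over all genes the block gave 333 higher and 460 lower, 135 and 186, and 0 and 1 in the same order. Of the 10 called members, 2 changed sign in some setting, both in APAP_MSC against APAP_PBS. Slc25a5 had a log2 fold change of -0.0157 with library totals alone, -0.0172 with log2(FPKM + 1) and -0.0173 with log2(FPKM + 0.1), against 0.03. Slc25a38 had -0.0323, -0.0639 and -0.0706 in the same settings, and -0.0055 without APAP_PBS replicate 1 and -0.0089 without APAP_PBS replicate 3, against 0.02; leaving out a library gave -0.0089 to 0.0717. Of the leading members of roles that were not called, 6 changed sign somewhere. In APAP_PBS against CTRL, library totals alone, log2(FPKM + 1) and log2(FPKM + 0.1) gave 0.1246, 0.1348 and 0.1357 for Slc25a39 (-0.11 with TMM) and 0.0523, 0.22 and 0.3078 for Slc25a30 (-0.22). Slc25a22 (0.0025) had -0.0156 with DESeq2's size factors, -0.0163 with its Wald test, -0.0148 with only the libraries compared and -0.0462 with the replicate block. Leaving out a library gave -0.2088 to 0.0087, -0.9112 to 1.0651 and -0.1618 to 0.2056 for Slc25a39, Slc25a30 and Slc25a22. In APAP_MSC against APAP_PBS, Slc25a37 (-0.0004) had 0.0032 with DESeq2's size factors, 0.0032 with its Wald test, 0.011 with no filter and 0.0029 with the block. Slc25a47 (0.05) had -0.0275 with library totals alone, -0.0843 with the block, and -0.1065 and -0.1081 on the FPKM scales, where Slc25a39 (0.08) had -0.0141 and -0.0142 and Slc25a22 (0.06) had -0.0256 and -0.0262. Leaving out a library gave -0.0642 to 0.1247 for Slc25a37, -0.485 to 0.2946 for Slc25a47, -0.0174 to 0.1046 for Slc25a22 and -0.0093 to 0.1454 for Slc25a23. In APAP_MSC against CTRL, Slc25a39 (-0.03) had 0.1571 with library totals alone and 0.1207 and 0.1215 on the FPKM scales, and Slc25a30 (-0.53) had 0.017 with log2(FPKM + 0.1). Leaving out a library gave -0.1208 to 0.0952 for Slc25a39, -1.2119 to 0.7658 for Slc25a30 and -0.0985 to 0.2674 for Slc25a22. The non-overlap counts on other scales and without APAP_MSC replicate 2 were chosen after seeing the data. Beyond the construction of each alternative, the cause was not tested. With 2 CTRL libraries, changes below 2-fold rest on few values, and members under 3 counts cannot be compared.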
